A study of Mus musculus with 4 samples.

Results

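The response of SH-2251-cultured Th2 cells to restimulation through the T cell receptor (TCR) was described as the difference between 2 arrays, those of restimulated and of resting cells of the same culture condition. A gene was compared when at least 1 of these 2 arrays detected its probe well above background, and 12613 of the 18539 genes named on the array met this rule. All cells came from female C57BL/6J mice with no genetic change given. Splenic CD4 T cells were sorted magnetically and stimulated for 2 days with anti-TCR-β (3 µg/ml) and anti-CD28 (1 µg/ml) antibodies together with the cytokines IL-4 at 10 ng/ml and IL-2 at 2.5 ng/ml, then cultured for a further 3 days with IL-2 and IL-4. The SH-2251 cultures also received the small molecule SH-2251 during both phases, and the control cultures are described without it. Per the labels its concentration was 1 µM in the first phase and 1 mM in the second, whereas the methods of the study state a single lower concentration, naïve starting cells and an anti-IFN-γ antibody in the cultures, so the dose is not settled here. The restimulated cells were then cultured for 4 h on immobilized anti-TCR-β antibody, and the resting cells were not. Each of the 4 conditions (SH-2251 or control, resting or restimulated) was hybridised to 1 single-colour Agilent whole mouse genome array, so no test, p-value or SD between cultures can be given. Nothing in the labels says how many animals or cultures stand behind an array.

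Th2 cells are CD4 T helper cells that depend on the transcription factor GATA3 and secrete IL-4, IL-5 and IL-13, the cytokines of allergic inflammation and of defence against helminths. Ligation of the TCR activates the calcineurin-NFAT, MAP kinase-AP-1 and NF-κB pathways. Immediate-early transcription factors come first, and effector cytokines, growth genes and the inhibitors that end the response come after them. The comparison asks which genes of this programme were higher or lower after restimulation in cells that had differentiated in the presence of SH-2251.

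The unit used throughout is the log2 signal minus the 75th percentile of the array's probes, called the log2 signal below. Levels of different genes are measured by different probes and were not set against each other. Each of the 4 arrays detected 56.0% to 56.7% of its probes well above background, no spot was saturated, and all 4 arrays were on 1 slide. The value after ± is called the technical SD. It is the error that the scanner software assigns to the signals of the pair of arrays (median 0.20 over genes measured on both), and was not measured from repeat spots. Among probes printed many times, the median SD between spots of an array was 0.047 to 0.056 over the arrays. The technical SD holds neither culture nor hybridisation error. Where a probe was well above background on 1 array only (dim on the other), the fold is given as a bound, against the lowest signal of any probe that was well above background on the dim array, or the probe's own signal if that was higher. All 10 T cell markers and all 8 Th2 markers were well above background on both SH-2251 arrays, and no T cell marker differed by 2-fold or more. Cd3e, a chain of the TCR complex, was at a log2 signal of 0.73 at rest and 0.62 after restimulation, and Gata3 was at 5.22 and 5.83. Of other cell types, 9 of 11 B cell markers were well above background on both arrays (log2 of the summed signal 5.18 at rest and 5.53 after restimulation), with Pax5 and Blk not above it. Of the myeloid and dendritic cell markers 5 of 13 were above background at rest and 6 after restimulation (summed 4.67 and 4.83), with Lyz2, Itgam, Itgax, Fcgr1, S100a8, S100a9 and Siglech not above it. Of the NK and CD8 T cell markers 3 of 7 were above background on both arrays (summed -0.91 and -0.68), with Ncr1, Klrb1c, Klrk1 and Klra8 not above it. Of the red cell and platelet markers 4 of 8 were above background on each array (summed 0.60 and 0.60). Among all these markers of other cells, Cd74 (1.02 ± 0.20) and the bound of Alas2 (at least 2.97-fold higher) passed 2-fold, and their part in the results below was not tested. The arrays hold RNA of whole cultures, so fewer cells of a type and less RNA per cell cannot be told apart.

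After 4 h of TCR restimulation, 894 genes were at least 2-fold higher and 881 at least 2-fold lower in SH-2251-cultured cells, which is 7.09% and 6.98% of the genes compared. These shares are the background for every list count given below. These counts hold 104 and 90 genes, respectively, that were well above background on 1 array only and whose difference is therefore a bound. The higher genes reached larger differences than the lower ones. At 4-fold there were 247 higher and 45 lower genes, at 8-fold 96 and 1, at 16-fold 32 and 0, and at 32-fold 17 and 0. The median difference over all genes was -0.05 on the log2 scale. Both counts depended on the background correction, at 731 and 1512 with the normexp model and at 658 and 440 with the same model when spots marked as uneven were left out. With the first of these corrections 52 of the 279 called genes named in the text were within 2-fold, and the differences of Amd1, Ccl24, Ccr3, Dusp16, Il1rl1 and Tnfsf4, otherwise higher, were under 0.

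**Figure D1:**
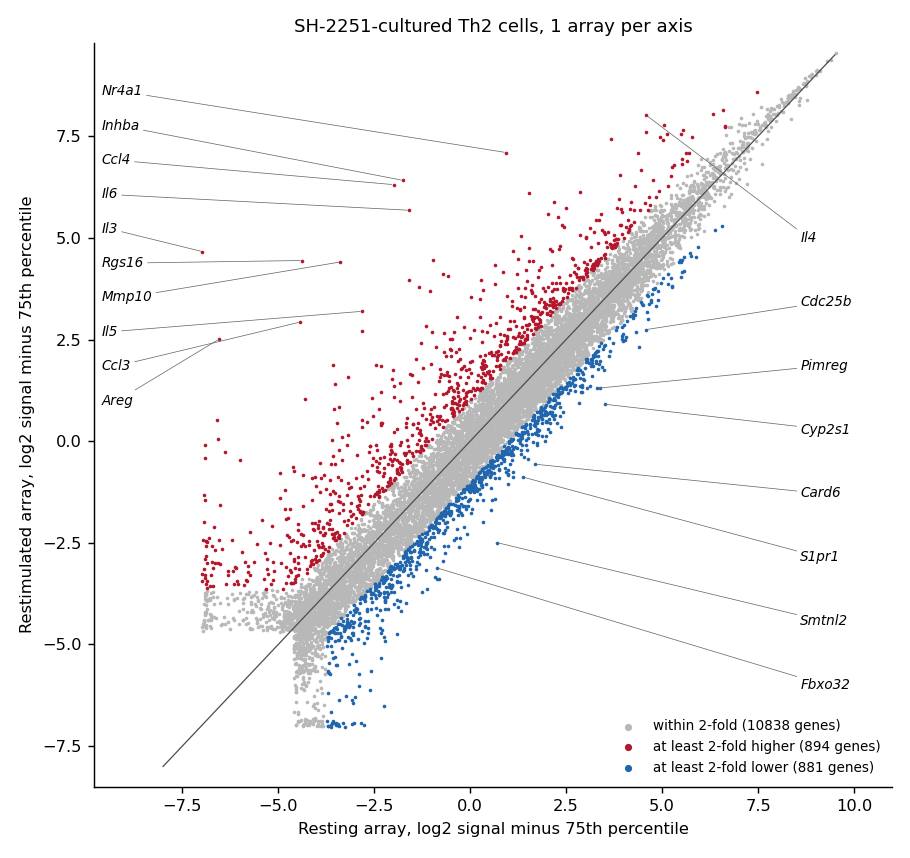
Log2 signal (minus the array's 75th percentile) of each gene compared, on the resting (x axis) and the restimulated (y axis) array of SH-2251-cultured Th2 cells, 1 point per gene. The line marks equal signal; the 894 higher genes (red) reach much farther from it than the 881 lower genes (blue), and the names mark examples of both.

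The sequences directly before the transcription start are shown for Nr4a1 and Egr2, the EGR and NR4A genes with the largest differences measured on both arrays, and for Il3, Il6, Areg and Il5, the Th2 cytokine genes with the largest differences or bounds, as examples of early factors and of cytokines. They are the 250 bases before the start in RefSeq annotation (build GRCm38.p6), 5′ to 3′ on the strand of the gene. Capitals mark matches, on either strand, to TGACGTCA (the cyclic AMP response element, CRE), TGANTCA (AP-1), the CArG box (serum response factor), CACGTG (the E-box), TGGAAA (the NFAT core) or the NF-κB site. A CArG box that ends in TGG can share those letters with a TGGAAA.
Nr4a1: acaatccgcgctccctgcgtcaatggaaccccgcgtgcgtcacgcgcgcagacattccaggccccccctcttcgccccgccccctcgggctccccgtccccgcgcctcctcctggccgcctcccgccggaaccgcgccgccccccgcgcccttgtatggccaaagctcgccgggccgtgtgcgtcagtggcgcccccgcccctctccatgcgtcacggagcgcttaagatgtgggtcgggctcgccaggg
Egr2: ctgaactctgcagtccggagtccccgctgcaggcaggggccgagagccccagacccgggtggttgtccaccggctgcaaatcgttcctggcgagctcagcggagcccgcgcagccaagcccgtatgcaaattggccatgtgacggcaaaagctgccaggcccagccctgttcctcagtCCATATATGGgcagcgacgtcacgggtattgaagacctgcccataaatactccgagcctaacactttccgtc
Il3: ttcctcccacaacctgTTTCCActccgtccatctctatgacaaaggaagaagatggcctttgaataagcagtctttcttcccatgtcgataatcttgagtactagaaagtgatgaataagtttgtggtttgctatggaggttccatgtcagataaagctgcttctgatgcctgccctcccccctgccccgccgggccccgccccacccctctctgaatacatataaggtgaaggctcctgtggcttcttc
Il6: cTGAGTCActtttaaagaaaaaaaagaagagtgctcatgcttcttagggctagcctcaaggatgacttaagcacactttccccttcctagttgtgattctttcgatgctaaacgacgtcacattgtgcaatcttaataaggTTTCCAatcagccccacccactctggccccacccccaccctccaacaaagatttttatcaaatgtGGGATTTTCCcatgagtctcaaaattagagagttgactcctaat
Areg: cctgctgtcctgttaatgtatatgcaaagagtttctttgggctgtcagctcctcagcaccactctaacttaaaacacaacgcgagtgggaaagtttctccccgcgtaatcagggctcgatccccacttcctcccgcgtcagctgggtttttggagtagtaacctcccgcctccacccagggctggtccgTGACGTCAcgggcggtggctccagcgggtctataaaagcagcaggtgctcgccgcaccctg
Il5: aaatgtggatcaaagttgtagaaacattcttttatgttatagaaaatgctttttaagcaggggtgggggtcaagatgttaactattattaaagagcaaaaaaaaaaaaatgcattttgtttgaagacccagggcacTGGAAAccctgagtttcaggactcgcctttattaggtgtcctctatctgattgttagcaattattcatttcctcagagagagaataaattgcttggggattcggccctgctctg
The Nr4a1 stretch (chr15:101266596-101266845, plus strand) holds no complete match, and an NF-κB site in its window spans the start. The Egr2 stretch (chr10:67537619-67537868, plus strand), the third of 5 annotated windows of that gene, holds a CArG box that begins at position -72 from the start. The Il3 stretch (chr11:54267280-54267529, minus strand) holds an NFAT core at -234. The Il6 stretch (chr5:30012864-30013113, plus strand) holds an AP-1 match at -249, an NFAT core at -109 and an NF-κB site at -44. The Areg stretch (chr5:91139349-91139598, plus strand) holds a CRE at -61, and the Il5 stretch (chr11:53720544-53720793, plus strand) an NFAT core at -114. These are matches of letters and not shown to be bound sites.

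Promoter windows of 300 bases (250 before to 50 after a start) were found for 10130 of the 12613 genes compared, some genes having several. AP-1 letters occurred in 12.9% of the windows of genes at least 4-fold higher, in 7.92% for genes at least 2-fold higher, in 3.66% for genes at least 2-fold lower and in 5.30% for all genes compared. The NFAT core occurred in 30.65%, 22.29%, 17.67% and 16.95% of these windows, respectively. For the NF-κB site the shares were 16.94%, 13.46%, 8.41% and 10.36%. The CRE (2.02%, 2.71%, 1.83% and 2.88%), the CArG box (1.61%, 1.92%, 1.19% and 1.34%) and the E-box (9.68%, 11.43%, 8.51% and 9.75%) were within 2 percentage points of the share in all genes compared in every set. Over all 32851 windows of the RefSeq table, also those of genes not compared, AP-1 letters were in 7.81%, the NFAT core in 21.43%, the NF-κB site in 8.46%, the E-box in 7.15%, the CRE in 1.79% and the CArG box in 1.63%. The share of windows with these letters differed between genes that were compared and the whole table, so both are given.

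The EGR and NR4A families, zinc finger factors and orphan nuclear receptors that are transcribed within minutes of TCR ligation, were higher throughout. All 9 compared members of the list, which also holds the co-repressors Nab1 and Nab2, were at least 2-fold higher (median difference 3.17). Of the 6 measured on both arrays all 6 were higher, and the bounds of Egr3, Egr4 and Nr4a3, dim at rest, could not have been lower. Nr4a1 (Nur77), an orphan nuclear receptor widely used as a reporter of TCR signalling, went from a log2 signal of 0.93 at rest to 7.10 after restimulation, a difference of 6.17 ± 0.20 (71.8-fold). Egr2 went from -0.58 to 4.05 (4.63 ± 0.20), and Egr1 from 0.65 to 4.32 (3.67 ± 0.20). Both encode zinc finger factors downstream of the MAP kinase ERK. Nr4a2 went from -2.81 to 0.35 (3.17 ± 0.22). Egr4, Nr4a3 and Egr3 were not well above background at rest (measured -6.90, -5.42 and -5.89) and were at -0.10, -1.95 and -3.55 after restimulation, at least 23.5-fold, 6.52-fold and 2.15-fold higher. The co-repressors of EGR factors counted in the list were Nab2, higher by 2.19 ± 0.21, and Nab1, higher by 1.40 ± 0.20. Among the 6 members measured on both arrays the difference was largest in Nr4a1. Restimulated control cells had 8 of 9 members at least 2-fold higher (median 3.34; background in control cells 7.20% higher and 7.34% lower).

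Of the AP-1 and BATF-IRF factors, basic leucine zipper proteins and their partners that bind with NFAT at cytokine genes, 9 of 15 were at least 2-fold higher and none lower (median 1.11). Fosl1, which encodes Fra-1, had the largest difference, from -3.55 to 0.79 (4.34 ± 0.25). Maff (3.24 ± 0.21), a small Maf protein, and Atf3 (3.23 ± 0.20), a stress-inducible member of the ATF family, were 9.42-fold and 9.38-fold higher. Junb, a known activator of Il4, went from 6.58 to 8.14 (1.56 ± 0.20). Jun (1.58 ± 0.23), Irf8 (1.90 ± 0.20), Fosl2 (1.11 ± 0.20) and Irf4 (1.07 ± 0.20) made up the rest with the bound of Fosb (at least 2.34-fold). Fos itself (0.84 ± 0.21), Jund (0.97 ± 0.20) and Batf (0.85 ± 0.20), the partner of IRF4 in T cells, stayed within 2-fold at this time.

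NF-κB is held in the cytoplasm by IκB proteins, whose own genes are NF-κB targets. Of its subunits and regulators 14 of 19 were at least 2-fold higher and none lower (median 1.59). Among the subunits, Nfkb2 (p100) went from 2.44 to 5.27 (2.82 ± 0.20), Relb from 2.86 to 5.08 (2.22 ± 0.20) and Rela from 3.32 to 4.87 (1.55 ± 0.20). Among the inhibitors, Nfkbia (IκBα) went from 4.96 to 7.47 (2.52 ± 0.20). Nfkbie (2.12 ± 0.20), Nfkbib (1.64 ± 0.20) and the deubiquitinase A20 (Tnfaip3, 3.32 ± 0.20) were higher too. So were the nuclear IκB proteins Nfkbid (3.03 ± 0.21) and Nfkbiz (1.64 ± 0.20). Of the other subunits, Rel was dim on both arrays and Nfkb1 was not matched to a probe. Traf1 (2.65 ± 0.20) and Birc3 (1.59 ± 0.20), adaptors of TNF receptors, followed. Bcl3, an atypical IκB protein, differed by 1.25 ± 0.20 against 0.28 in control cells, a gap that was not tested. The genes of the IκB kinase complex, Chuk (0.43 ± 0.20), Ikbkb (0.05 ± 0.20) and Ikbkg (-0.49 ± 0.21), were within 2-fold.

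The calcineurin-NFAT pathway, which carries the calcium signal, showed 1 higher and 1 lower gene of 14 (median -0.27), near the background. Orai1, the pore of the store-operated calcium channel, was higher (1.72 ± 0.20). Nfatc1 (NFAT2) was lower by its brightest probe (-1.09 ± 0.20), but its 2 measured probes differed in sign, at -1.09 and 1.82, so the gene has no single direction here. Nfatc2 (0.18 ± 0.21) and Rcan1 (-0.54 ± 0.21), a calcineurin inhibitor, were within 2-fold. Of 13 phosphatase, Sprouty and Spred genes, which damp the MAP kinases, 4 were higher and none lower (median 0.36), namely Dusp2 (3.02 ± 0.20) and Dusp4 (2.45 ± 0.20), which dephosphorylate MAP kinases in the nucleus, Dusp16 (1.70 ± 0.27), which acts on JNK, and Spry1 (2.72 ± 0.20), an inhibitor of the RAS-ERK pathway. Dusp1 (0.17 ± 0.20) and Dusp6 (0.36 ± 0.20) were not among them. Of the E3 ligases and diacylglycerol kinases that restrain TCR signalling 2 of 11 were higher, Peli1 (1.31 ± 0.20) and the NEDD4-family adaptor Ndfip1 (1.21 ± 0.20).

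Factors that shorten the life of cytokine mRNAs were higher in 8 of 18 cases and lower in none (median 0.60). Zc3h12c (2.81 ± 0.21), Zc3h12a (Regnase-1, 1.70 ± 0.27) and Zc3h12d (1.32 ± 0.20) belong to the Regnase family of RNases. Zfp36 (tristetraprolin, 1.73 ± 0.20) and Zfp36l1 (2.14 ± 0.20) bind AU-rich elements, and Rc3h1 (Roquin-1, 1.13 ± 0.20) binds stem-loops. Btg1 (2.37 ± 0.20) and Btg3 (1.76 ± 0.20) are antiproliferative partners of the deadenylase. Zfp36l2, the third member of the tristetraprolin family listed, was at -0.86 ± 0.22, within 2-fold.

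Proximal TCR signalling genes were near 0 as a group, with 6 higher and 3 lower genes of 34 (median 0.11). The adaptor SLP-76 (Lcp2, 2.00 ± 0.20), Malt1 (1.64 ± 0.20) and Bcl10 (1.06 ± 0.20), which link the TCR to NF-κB, the inhibitory receptor Cd5 (1.46 ± 0.20) and the adaptor Sla (1.40 ± 0.20) were higher. The adaptor Sla2 (-1.38 ± 0.20) and the Tec kinase Txk (-1.14 ± 0.24) were lower. Lck (0.09 ± 0.20), Zap70 (0.58 ± 0.20) and Lat (0.65 ± 0.20) were within 2-fold.

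All 12 Th2-associated cytokine genes compared were at least 2-fold higher, with a median difference of 5.18. Of the 8 measured on both arrays all 8 were higher. Il3, Areg, Il21 and Il9 were dim at rest and entered through the restimulated array alone, so their bounds could not have been lower. Il5, the growth and survival factor of eosinophils, went from -2.82 at rest to 3.19 after restimulation, a difference of 6.01 ± 0.22 (64.5-fold). Il13, which drives mucus production and airway hyperreactivity, went from -2.81 to 2.72 (5.53 ± 0.22; 46.1-fold), and Il4, the cytokine that defines the lineage, from 4.59 to 8.02 (3.43 ± 0.20; 10.8-fold). These 3 genes are neighbours in the Th2 cytokine locus, and each was well above background on both arrays. Il3, a growth factor of mast cells and basophils, was not well above background at rest (measured -6.97) and reached 4.66, at least 636-fold higher. Csf2 (GM-CSF) went from -1.58 to 3.96 (5.54 ± 0.21). Il6 went from -1.60 to 5.68 (7.28 ± 0.21; 155-fold), the largest difference among the Th2 cytokines measured on both arrays. Areg (amphiregulin), an EGF receptor ligand made by Th2 cells, was not well above background at rest and was at 2.50 after restimulation, at least 142-fold higher. Il31, the itch cytokine (4.83 ± 0.20), the anti-inflammatory Il10 (2.90 ± 0.20) and Il24 (2.72 ± 0.20), of the IL-10 family, were higher from levels well above background. Il21 (at least 14.7-fold) and Il9 (at least 3.95-fold) were higher from dim levels. Side by side with control cells, the difference of Il5 was 5.16 there, that of Il13 4.77, of Il4 3.56, of Il6 5.85 and of Il31 5.98. In control cells Il5 started at 1.04 and ended at 6.20, so both of its levels were lower in SH-2251-cultured cells. The differences between the cultures were not tested.

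**Figure D2:**
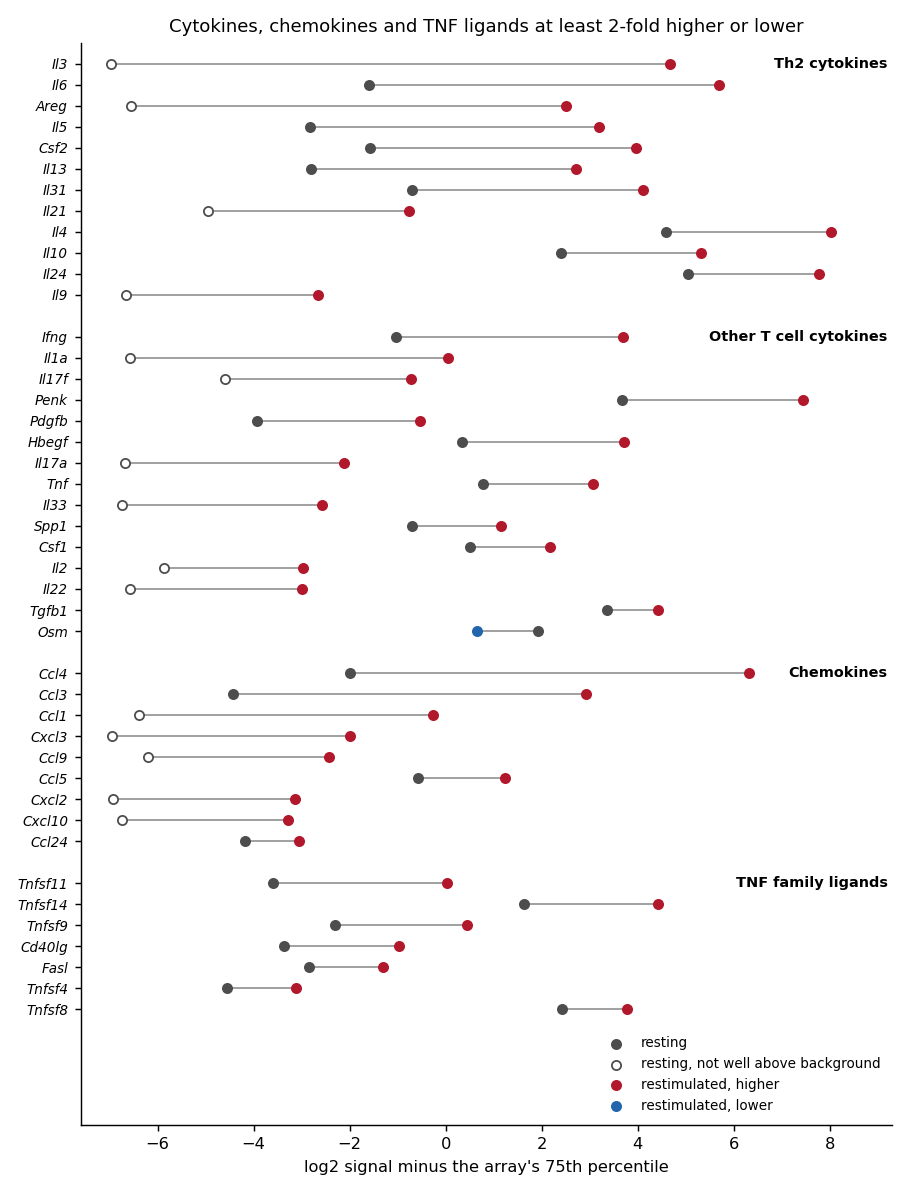
Log2 signal (minus the array's 75th percentile) on the resting (grey; open where the probe was not well above background) and the restimulated array (red or blue) of SH-2251-cultured Th2 cells, for every compared cytokine, chemokine and TNF ligand gene that differed by at least 2-fold. All 12 Th2 cytokines lie higher after restimulation, and Osm is the only gene shown that is lower; lines from an open circle overstate what is known, since only a bound holds there.

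Of the other cytokines of T cells, 14 of 27 were at least 2-fold higher and 1 was lower (median 1.08), and of the 21 measured on both arrays 8 were higher. Ifng, the cytokine of Th1 cells, went from -1.04 to 3.70 (4.74 ± 0.21; 26.8-fold). Il17f (at least 14.6-fold), Il17a (at least 5.77-fold) and Il22 (at least 3.15-fold), which mark Th17 cells, and Il2 (at least 3.21-fold), the T cell growth factor, were higher from dim levels. Of these genes only Ifng was measured on both arrays. The others entered through the restimulated array alone, so their bounds could not have been lower. Il1a (at least 25.9-fold) and Il33 (at least 4.21-fold), of the IL-1 family, were also dim at rest. Penk, the precursor of enkephalin peptides, went from 3.67 to 7.44 (3.77 ± 0.20). The growth factors Hbegf (3.37 ± 0.20), Pdgfb (3.39 ± 0.28) and Csf1 (1.68 ± 0.20), Tnf (2.28 ± 0.20), osteopontin (Spp1, 1.87 ± 0.20) and Tgfb1 (1.08 ± 0.20) completed the group, and Osm (oncostatin M, -1.27 ± 0.20) was lower.

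Of 32 chemokine genes named on the array 13 could be compared, and 9 of these were at least 2-fold higher and none lower (median 1.51). With normexp 4 of them were higher, without uneven spots 5, and of the 7 measured on both arrays 4. The inflammatory chemokines Ccl4 and Ccl3 led. Ccl4 went from -2.00 to 6.31 (8.31 ± 0.21; 317-fold) and Ccl3 from -4.43 to 2.93 (7.36 ± 0.35; 164-fold). The resting signal of Ccl3 was near the lowest that is well above background on that array (-4.65), so its fold is less certain. Ccl1, the ligand of the Th2 receptor CCR8, was dim at rest and at least 20.8-fold higher, and Ccl5 went from -0.57 to 1.23 (1.80 ± 0.20). Cxcl3 (at least 6.34-fold), Ccl9 (at least 4.66-fold), Cxcl2 (at least 2.85-fold) and Cxcl10 (at least 2.57-fold) came from dim levels as well. These bounds, like that of Ccl1, could not have been lower. Ccl24 (eotaxin-2) differed by 1.12 ± 0.31 at levels near the lowest that are well above background.

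Of the TNF family ligands, which act on antigen-presenting cells, B cells and other T cells, 8 of 13, Tnf included, were higher and none lower (median 1.45), and 5 were higher with normexp. RANKL (Tnfsf11) went from -3.60 to 0.03 (3.63 ± 0.25), LIGHT (Tnfsf14) from 1.63 to 4.42 (2.80 ± 0.20) and 4-1BBL (Tnfsf9) from -2.30 to 0.44 (2.74 ± 0.21). Cd40lg (2.40 ± 0.24), the helper signal for B cells, Fasl (1.53 ± 0.23), the death ligand, Tnfsf8 (1.35 ± 0.20) and Tnfsf4 (OX40L, 1.45 ± 0.36) were higher by less. Lymphotoxin genes Lta (-0.59 ± 0.20) and Ltb (-0.12 ± 0.20) were not. Of the receptors of this family 5 of 21 were higher and 1 lower. Among these were Cd40 (2.08 ± 0.26), Tnfrsf10b (1.67 ± 0.21), Fas (1.28 ± 0.20), 4-1BB (Tnfrsf9, 1.24 ± 0.20) and OX40 (Tnfrsf4, 1.11 ± 0.20), while Tnfrsf26 (-1.16 ± 0.21) was lower.

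Costimulatory and inhibitory receptors of T cells were higher in 12 of 28 cases and lower in 2 (median 0.77). Havcr2 (TIM-3) went from -1.33 to 3.79 (5.12 ± 0.21; 34.8-fold). Pdcd1 (PD-1) went from 0.30 to 2.43 (2.12 ± 0.20), and the genes of both its ligands, Cd274 (PD-L1, 3.68 ± 0.20) and Pdcd1lg2 (PD-L2, 2.92 ± 0.21), were higher with it. Receptor and ligands of this checkpoint were thus all higher. The same held for Cd200 (3.33 ± 0.20) and its receptor Cd200r1 (1.77 ± 0.21). Ctla4 (2.08 ± 0.21), Lag3 (1.53 ± 0.20), Btla (1.36 ± 0.21), Cd5 (1.46 ± 0.20) and Cd6 (1.41 ± 0.20) were higher by 2-fold to 5-fold. Icosl (-1.60 ± 0.20), the ligand of ICOS, and the collagen receptor Lair1 (-1.58 ± 0.21) were lower. Cd28 (0.21 ± 0.20) and Icos (0.69 ± 0.20), the activating receptors, were within 2-fold.

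Of the common gamma, IL-4, IL-6 and IL-12 family chains 2 of 24 were higher and 1 lower (median 0.44; 4 and 2 with normexp), namely Il2ra (1.46 ± 0.20; its 2 probes gave 0.31 and 1.46), Il2rg (1.05 ± 0.20) and, lower, Il10ra (-1.50 ± 0.20). These counts were near the 7.09% higher and 6.98% lower of all genes compared. Il4ra, the receptor through which IL-4 acts, was at -0.88 ± 0.20. Of the IL-1 family and alarmin receptors 5 of 14 were higher and none lower, against 2 and 1 with normexp and 3 and none without uneven spots. The decoy receptor Il1r2 went from 3.94 to 5.70 (1.76 ± 0.20). Il1rl1 (ST2), the IL-33 receptor of Th2 cells, was higher by 1.54 ± 0.31, and its partner chain Il1rap by 2.67 ± 0.27.

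Receptors that guide T cell migration differed in both directions, with 5 of 19 chemokine receptor genes higher and 2 lower. Cxcr6 went from 2.49 to 5.74 (3.25 ± 0.20). The Th2 receptors Ccr8 (1.62 ± 0.20) and Ccr3 (1.64 ± 0.31), and Ccr2 (1.81 ± 0.21), were higher, whereas Ccr4 (-0.13 ± 0.20) was within 2-fold. Cxcr4 (-1.42 ± 0.21) and the scavenger receptor Ackr2 (-1.33 ± 0.35) were lower. Of the egress and quiescence genes 6 of 29 were lower and 3 higher (median -0.30), and with normexp 4 and 4. S1pr1, the sphingosine-1-phosphate receptor that lets T cells leave lymphoid organs, went from 1.38 to -0.88 (-2.26 ± 0.21; 4.79-fold lower), against -1.11 in control cells. S1pr4 (-1.23 ± 0.21) was lower too. Cd69, whose product pulls S1PR1 from the surface, went the other way, from -0.32 to 1.97 (2.29 ± 0.20). Txnip (-1.90 ± 0.20), which limits glucose uptake, Pik3ip1 (-1.76 ± 0.20), an inhibitor of PI3 kinase, Rasa3 (-1.35 ± 0.20), a RAS and RAP GTPase-activating protein, and Id3 (-1.18 ± 0.20) were lower. Klf2 (0.17 ± 0.20), Ccr7 (-0.63 ± 0.20) and Il7r (0.21 ± 0.20), well known genes of quiescent and recirculating cells, were within 2-fold, and Klf4 (1.75 ± 0.20), Foxo1 (1.22 ± 0.20) and Slfn2 (1.16 ± 0.20) were higher. The list therefore held differences of both signs.

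Among G protein regulators and G protein-coupled receptors 9 of 24 were higher and 4 lower (2 lower with normexp). Rgs16, which accelerates GTP hydrolysis by Gα subunits and so dampens chemokine receptor signals, had the largest difference of all genes measured on both arrays. It went from -4.38 to 4.44 (8.82 ± 0.31; 454-fold). Its resting signal was near the lowest that is well above background on that array (-4.65), so its fold and rank are less certain. Rgs2 (2.99 ± 0.20), the proton-sensing receptor Gpr65 (3.16 ± 0.22), and the cyclic AMP-raising receptors Ptger2 (2.24 ± 0.20), Adora2b (2.23 ± 0.20) and Adora2a (1.16 ± 0.20) were higher. Other RGS genes were lower, Rgs11 (-1.70 ± 0.21), Rgs12 (-1.15 ± 0.20) and Rgs14 (-1.14 ± 0.20), as was the ATP receptor P2rx7 (-1.51 ± 0.20). Of the integrins and adhesion molecules 7 of 23 were higher, among them Itgav (2.56 ± 0.20), Itga3 (2.33 ± 0.20), Icam1 (2.31 ± 0.21) and Cd44 (2.06 ± 0.20), and 2 were lower. Among cytotoxic granule genes 5 of 13 were higher and 1 lower. Gzmb (granzyme B) went from 5.12 to 7.55 (2.43 ± 0.20; control 1.17), and 2 serpin genes, Serpinb9 (2.35 ± 0.22) and Serpinb6b (2.64 ± 0.20), were higher with it. Granzymes and serpins are multigene families with near-identical members, so a probe may read more than 1 of them.

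Of the transcription factors that act in Th2 cells 7 of 19 were higher and 1, Nfatc1 by its brightest probe, lower (median 0.89). Gfi1, a zinc finger repressor that supports Th2 cell expansion, went from -2.00 to 1.75 (3.75 ± 0.21; 13.5-fold). In control cells it stood at 3.38 at rest and 4.24 after restimulation (0.86), so both of its levels were lower in SH-2251-cultured cells and the difference between them was larger. Zeb2, a repressor of the ZEB family, went from -2.46 to 1.88 (4.34 ± 0.21), Bhlhe40 from 0.26 to 3.49 (3.23 ± 0.20) and Runx2 from -3.63 to -0.56 (3.07 ± 0.25). Gata3 (0.61 ± 0.20), Maf (0.91 ± 0.20) and Stat6 (0.56 ± 0.20) were within 2-fold. Of the regulators of other lineages 6 of 23 were higher and 3 lower (5 lower with normexp). Tbx21 (T-bet), the master factor of Th1 cells, went from -0.43 to 2.69 (3.12 ± 0.20), and Bcl6, that of follicular helper cells, from -1.67 to 0.36 (2.02 ± 0.21). Zbtb32 (3.67 ± 0.21), a repressor of cytokine genes, Irf1 (1.68 ± 0.20) and Id2 (1.54 ± 0.20) were higher. Foxp3 (-0.09 ± 0.34) was within 2-fold, and Myb (-1.57 ± 0.20) and Rora (-1.06 ± 0.23) were lower. Of the STAT and SOCS genes 3 of 17 were higher and 1 lower (median 0.34), with Stat5a from 2.28 to 5.51 (3.23 ± 0.20) by far the first, whereas Stat5b, its neighbour in the genome, was at 0.54 ± 0.20.

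The lists of cell growth genes differed in their shares of higher genes. Of the MYC and ribosome biogenesis genes 25 of 50 were at least 2-fold higher and 1 lower (median 1.03). Noc3l (2.20 ± 0.21) and Nop58 (1.11 ± 0.20) act in ribosome assembly, Polr1b (2.00 ± 0.20) is a subunit of RNA polymerase I, Nolc1 (1.84 ± 0.20) and Dkc1 (1.55 ± 0.21) work on nucleolar RNAs, and Ddx21 (1.60 ± 0.20) is a nucleolar helicase. Myc itself was at 0.25 ± 0.20, within 2-fold, whereas Mycn was at least 5.10-fold higher from a dim level. Mxd3, a MAX partner that opposes MYC, was lower (-1.79 ± 0.20). Of the 39 cytosolic ribosomal protein genes none passed 2-fold, and all lay between -0.03 and 0.27. Of the translation factors and tRNA synthetases 3 of 35 were higher and none lower (median 0.54; 7 higher with normexp), against 12 of 35 in control cells (median 0.77). Of the amino acid transporters 9 of 17 were higher and 1 lower (median 1.10). They included both chains of the large neutral amino acid transporter, Slc3a2 (1.47 ± 0.20) and Slc7a5 (1.10 ± 0.20), and the glutamine carriers Slc1a5 (1.36 ± 0.20) and Slc38a1 (1.41 ± 0.20). Slc7a5 differed by 2.30 in control cells and Slc1a4 by 2.81, against 1.22 ± 0.20 here. Of the 32 genes of nucleotide, folate and polyamine synthesis 6 were higher and 1 lower. The higher ones were Odc1 (1.73 ± 0.20), Srm (1.65 ± 0.20) and Amd1 (1.26 ± 0.27), which make polyamines, Sat1 (1.26 ± 0.20), which breaks them down, Shmt1 (1.52 ± 0.20), of folate metabolism, and Ctps (1.09 ± 0.20), which makes CTP, while the spermine synthase Sms (0.77 ± 0.20) was within 2-fold.

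None of the 46 respiratory chain subunits passed 2-fold (range -0.42 to 0.71), nor did any of the 36 proteasome subunits (-0.38 to 0.72). Of the glycolysis and hypoxia genes 4 of 36 were higher and 5 lower (median -0.30). Hif1a (1.05 ± 0.20), the factor of the hypoxia response,, the enolase Eno2 (1.06 ± 0.21), the endoplasmic reticulum oxidase Ero1a (1.10 ± 0.20) and the lactate transporter Slc16a1 (1.17 ± 0.20) were higher, while Pfkm (-1.71 ± 0.20), Pdk1 (-1.53 ± 0.20), Bnip3 (-1.45 ± 0.20), Egln1 (-1.38 ± 0.20) and Slc2a3 (-1.01 ± 0.20) were lower. Ldha (0.02 ± 0.20) and Pgk1 (-0.07 ± 0.20) were within 2-fold. With quantile normalization 2 of this list were higher and 7 lower. Cholesterol and fatty acid synthesis had 1 higher and 4 lower genes of 39, beside 7.09% higher and 6.98% lower of all genes compared. In the ATF4, endoplasmic reticulum stress and chaperone list 6 of 36 were higher and none lower (median 0.56; 11 higher with normexp), against 15 of 36 in control cells (median 0.74). Heat shock protein 70 led this list with Hspa1a (3.26 ± 0.21) and Hspa1b (2.55 ± 0.25), whose sequences are nearly identical, followed by the glutathione-degrading Chac1 (1.74 ± 0.20; control 2.67) and the chaperone BiP (Hspa5, 1.08 ± 0.20). Of the NRF2 and antioxidant genes 4 of 29 were higher (2 with normexp and no uneven spots), with sulfiredoxin (Srxn1, 2.77 ± 0.20) and heme oxygenase (Hmox1, 1.18 ± 0.20) among them.

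The list of genes of mitosis was the only 1 of the 46 function lists in which over 50% of the members were lower. Of 46 G2-M genes 32 were at least 2-fold lower and none higher, against 6.98% of all genes compared, and the median difference was -1.17. Pimreg went from 3.31 to 1.30 (-2.01 ± 0.20), Cdc25c from -0.16 to -2.11 (-1.95 ± 0.21) and Cdc25b from 4.57 to 2.74 (-1.83 ± 0.20). The CDC25 phosphatases switch on CDK1 at the entry into mitosis. The cyclins Ccnb1 (-1.18 ± 0.20), Ccnb2 (-1.19 ± 0.20) and Ccna2 (-1.16 ± 0.20), the kinases Plk1 (-1.30 ± 0.20) and Aurkb (-1.27 ± 0.20), the spindle checkpoint genes Bub1b (-1.22 ± 0.20) and Ttk (-1.43 ± 0.23), the APC activator Cdc20 (-1.40 ± 0.20) and the kinesins Kif20a (-1.52 ± 0.20) and Kif2c (-1.35 ± 0.21) were lower by similar amounts. Cdk1 (-0.91 ± 0.20), Aurka (-0.98 ± 0.20), Mki67 (-0.70 ± 0.20) and Top2a (-0.80 ± 0.20) were within 2-fold, but also below 0. In control cells 9 of the 46 were at least 2-fold lower and none higher (median -0.85, where 7.34% of all genes were lower). The difference between the cultures was not tested. With the normexp background correction 15 of the 46 were lower in SH-2251-cultured cells, and 29 when spots marked as uneven were left out as well.

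**Figure D3:**
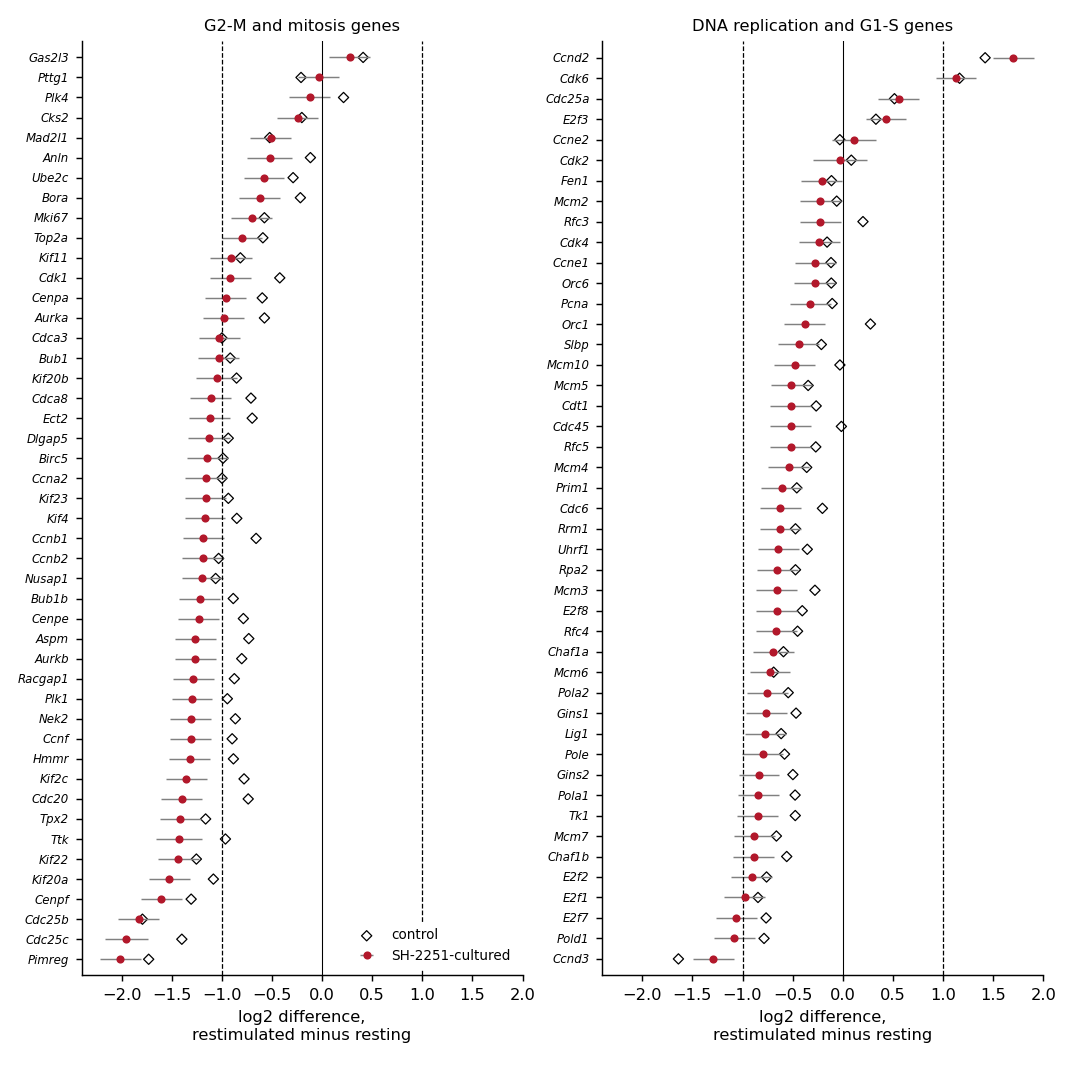
Log2 difference, restimulated minus resting, of each compared G2-M (left) and DNA replication or G1-S gene (right) in SH-2251-cultured (red, bars are the technical SD) and control Th2 cells (open diamonds), 1 pair of arrays each. Dashed lines mark 2-fold; 32 of 46 G2-M genes lie left of -1 in SH-2251-cultured cells, whereas most replication genes lie between -1 and 0.

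DNA replication and G1-S genes were lower by less, with 3 of 45 at least 2-fold lower and 2 higher (median -0.62), and with quantile normalization 6 were lower. Over all genes compared 6.98% were lower and 7.09% higher. The replicative helicase subunits Mcm2 to Mcm7 lay between -0.88 ± 0.20 (Mcm7) and -0.22 ± 0.20 (Mcm2), and Pold1 (-1.08 ± 0.20), a DNA polymerase subunit, and the repressor E2f7 (-1.06 ± 0.20) passed 2-fold. The D-type cyclins, which drive entry into the cycle, differed in opposite directions, as Ccnd2 went from 5.79 to 7.49 (1.70 ± 0.20) and Ccnd3 from 5.16 to 3.87 (-1.29 ± 0.20). Cdk6 (1.13 ± 0.20) was higher by its brightest probe, while another gave 0.27. Among CDK inhibitors and growth arrest genes 8 of 28 were higher and 3 lower (5 lower with quantile normalization). The stress sensors Gadd45b (3.55 ± 0.20), Gadd45a (2.00 ± 0.21) and Gadd45g (1.41 ± 0.20) and the kinases Plk3 (2.45 ± 0.20) and Plk2 (1.34 ± 0.21) were higher. Cdkn2b (1.47 ± 0.20) was higher and Cdkn2c (-1.64 ± 0.20), which blocks CDK4 and CDK6, was lower. In the Bcl2 family 2 of 17 were higher, the survival genes Bcl2l1 (Bcl-xL, from 0.44 to 2.68; 2.24 ± 0.20) and Bcl2a1b (A1, 3.56 ± 0.20), whose paralogs share most of its sequence. The death-promoting Bmf (-1.65 ± 0.24) was lower by 1 of its 2 probes, the other giving 0.02.

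The other lists held few or mixed differences, to be read beside the 7.09% higher and 6.98% lower of all genes compared. Of 28 interferon-stimulated genes 2 were higher and 3 lower (median 0.04; 1 and 5 with normexp). Isg15, a ubiquitin-like modifier, went from -1.28 to 2.42 (3.71 ± 0.21; control 1.64), and Ifih1 (2.84-fold), the sensor MDA5, was higher, while the related Dhx58 (-1.79 ± 0.21) was lower with Cmpk2 (-1.46 ± 0.33) and Xaf1 (-1.12 ± 0.20). In the HIN-200 family of DNA-binding proteins 3 genes were compared and 2 were higher, Ifi211 (2.41 ± 0.20; control 0.58) and Ifi204 (2.41 ± 0.21; control 1.10). These genes are close paralogs, so their probes may share targets. Of the TGF-β, Smad and Notch genes 8 of 28 were higher and 1 lower, with the inhibitors Smad7 (1.49 ± 0.22), Skil (1.43 ± 0.20), Tgif1 (1.97 ± 0.22) and Tgif2 (1.44 ± 0.20) on one side and Notch3 (-1.56 ± 0.21) on the other. With normexp 4 of this list were higher and 6 lower. Of the polycomb, trithorax and histone demethylase genes 2 of 35 were higher and 2 lower, which is no more than the shares of all genes compared. Kdm6b (JMJD3), the demethylase of histone H3 lysine 27, went from 2.14 to 4.69 (2.55 ± 0.20), and Ezh1 (-1.55 ± 0.21), a methyltransferase for the same residue, was lower. Of the clock genes Per1 (1.55 ± 0.20) was higher and Dbp (-1.74 ± 0.20) lower. The GIMAP and interferon-induced GTPases had 2 higher and 1 lower of 19, and the lysosome and autophagy genes 1 lower of 31, Wipi1 (-1.53 ± 0.21). Over all function lists, 245 of 1110 compared genes were higher and 87 lower. Since the lists were drawn up around T cell activation, these shares describe the lists and not the genome.

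**Figure D4:**
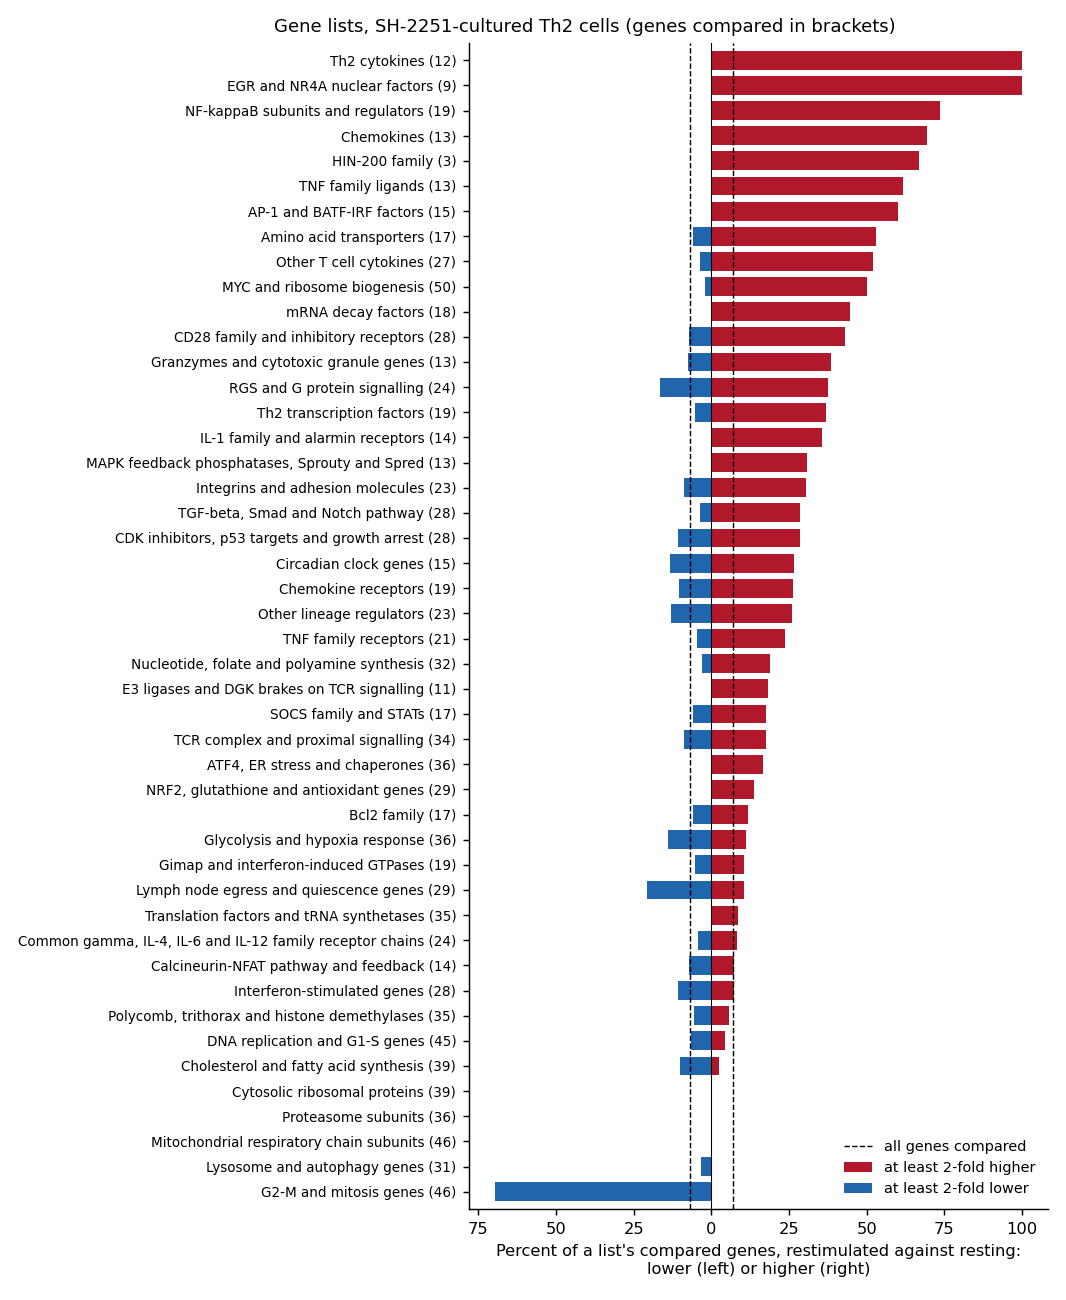
Percent of each function list's compared genes (number in brackets) that were at least 2-fold higher (red, right) or lower (blue, left) in restimulated against resting SH-2251-cultured Th2 cells, with dashed lines at the 7.09% and 6.98% of all genes compared. The Th2 cytokine and EGR and NR4A lists reach 100% on the higher side, and the G2-M list alone extends far to the lower side.

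Several of the genes with the largest differences belong to none of the lists. Inhba, the subunit of activin A, went from -1.76 to 6.42 (8.17 ± 0.21; 288-fold), and Mmp10, the matrix protease stromelysin-2, from -3.38 to 4.41 (7.79 ± 0.25; 221-fold). Scin, an actin-severing protein, went from -3.57 to 1.89 (5.46 ± 0.25). All 3 encode proteins best known outside of T cells. Ramp3, a partner chain of the calcitonin receptor-like receptor, went from -0.96 to 4.45 (5.41 ± 0.21). Plaur, the urokinase receptor, differed by 5.35 ± 0.35, with 3.25 by another probe. Its resting signal (-4.30) was near the lowest that is well above background on that array (-4.65). Pth, which encodes parathyroid hormone, went from -3.53 to 1.41 (4.94 ± 0.25). Tpbg, an oncofetal surface glycoprotein, was dim at rest and at least 36.0-fold higher.

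On the lower side no gene reached the size of these increases. Smtnl2, a smoothelin-like protein, had the largest difference measured on both arrays, from 0.70 to -2.50 (-3.19 ± 0.21; 9.14-fold lower). Dapk2 (-2.60 ± 0.25), a death-associated protein kinase, Cyp2s1 (-2.59 ± 0.20), a cytochrome P450, and Zfp395 (-2.53 ± 0.25), a zinc finger protein, followed. Dpf1 (-2.51 ± 0.24), Ripor2 (-2.47 ± 0.25), the transporter Abcg3 (-2.42 ± 0.23), Crtac1 (-2.38 ± 0.31), the integrin chain Itga7 (-2.33 ± 0.21), the thromboxane receptor Tbxa2r (-2.33 ± 0.22) and the adaptor Apbb1 (-2.30 ± 0.29) lay between 4-fold and 6-fold lower. After S1pr1 came the CARD protein gene Card6 (-2.26 ± 0.20), the ubiquitin ligase subunit Fbxo32 (-2.24 ± 0.23), a known FOXO target, and the uncharacterised 1700007K13Rik (-2.24 ± 0.21). All of these genes were well above background on both arrays. Among genes that were dim after restimulation, the largest bounds were those of Zfp618 (at least 7.08-fold lower), Ptprr (at least 5.78-fold), Meikin (at least 5.64-fold), Pitx1 (at least 5.61-fold) and Prrxl1 (at least 5.32-fold).

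Set beside the response of control Th2 cells, which was measured on the other 2 arrays, the response of SH-2251-cultured cells was similar over most genes. Control cells had 918 genes at least 2-fold higher and 937 lower of 12757 compared. Of the 894 genes higher in SH-2251-cultured cells 649 (72.6%) were also higher in control cells, and these were 70.7% of the control genes. Of the 881 lower genes 595 (67.5%) were also lower in control cells, 63.5% of the control genes. Over the 11518 genes well above background on all 4 arrays Pearson's r between both differences was 0.919 and Spearman's rho 0.897, given as a description across genes, which are not replicates. It was 0.768 with the normexp background correction and 0.930 with spots marked as uneven left out as well. Farther apart lay Scin (5.46 ± 0.25 against 2.33), Ramp3 (5.41 ± 0.21 against 2.75), Gfi1 (3.75 ± 0.21 against 0.86), Cxcr6 (3.25 ± 0.20 against 1.02), Isg15 (3.71 ± 0.21 against 1.64) and Inhba (8.17 ± 0.21 against 6.47), with the larger value in SH-2251-cultured cells each time. Ifng (4.74 ± 0.21 against 5.92), Il31 (4.83 ± 0.20 against 5.98), Spp1 (1.87 ± 0.20 against 3.60) and Slc1a4 (1.22 ± 0.20 against 2.81) lay on the other side. With 1 array a condition none of these gaps could be tested.

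**Figure D5:**
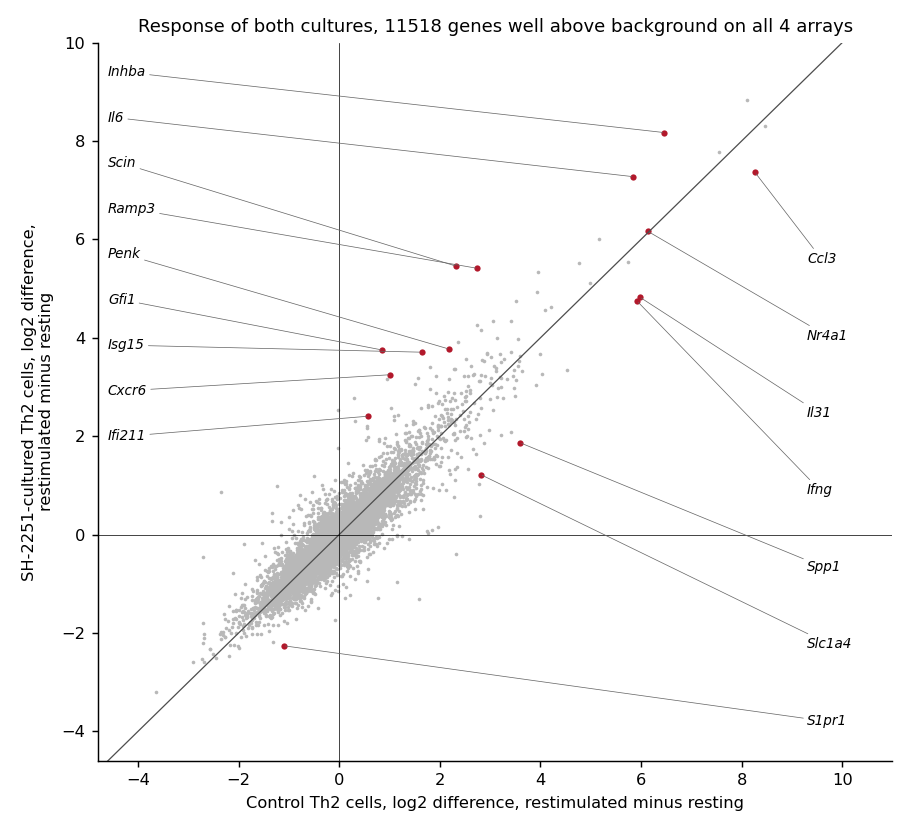
Log2 difference, restimulated minus resting, in control (x axis) and SH-2251-cultured Th2 cells (y axis), for the 11518 genes well above background on all 4 arrays, 1 point per gene; the line marks equal differences. Most genes lie along the line, and the named genes (red) are examples that the text describes, among them Scin, Ramp3 and Gfi1 above the line and Ifng, Il31, Spp1 and Slc1a4 below it.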

How the data were processed

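RNA of 4 Th2 cell samples was hybridised to 4 single-colour Agilent arrays, 1 for each condition. The authors deposited the scanner output, in which each spot has an intensity that Feature Extraction 10.7.3.1 corrected for background and spatial trend (version 10.7 in the submitters' processing notes). They also deposited a table of log2 values made on the Subio Platform. Over the 4 arrays 99.63% to 99.66% of its probes lay within 0.01 of log2 intensity minus the array's 75th percentile, which settled its scale, centring and direction, and its column medians were -3.776 and -3.739 for resting and restimulated SH-2251-cultured cells and -3.718 and -3.696 for control cells.

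Values here were log2 of the processed intensity minus the 75th percentile of the 41174 probes of each array (outlier spots left out, spots of a probe averaged), using Python 3.11.15, numpy 2.4.6, pandas 2.3.3, scipy 1.17.1 and matplotlib 3.10.9. The 75th percentile was at an intensity of 614.5 at rest and 582.7 after restimulation in SH-2251-cultured cells, and at 560.9 and 499.5 in control cells. The number of arrays limits the precision. Through their accessions 27198 probes (66.1%) were named from RefSeq (GRCm38.p6). The array design was annotated on mm9, so none of its coordinates were used. A gene was represented by its brightest named probe over all arrays, and was compared only if that probe passed the background filter. Resting values were subtracted from restimulated values, and differences of at least 2-fold were called. The script was tested on simulated data. No array column was left without a sample.

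The genes, lists and thresholds were chosen with earlier results of these data known. Genes named were the 15 largest differences in each direction measured on both arrays, the 5 largest bounds in each direction, and the members of each list past 2-fold, up to 10 a list. List members within 2-fold, further G2-M and ribosome biogenesis genes and the genes set side by side with control cells were named after their values were seen. Alternatives were median scaling, quantile normalization, normexp background correction (limma 3.58.1 in R 4.3.3, offset 50) with and without uneven spots, the authors' values, other filters, other thresholds and other ways to combine probes. Values of a few list members are not reported here.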

Additional observations from a re-analysis of the deposited data

Results flagged for a closer look

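There were 7 genes with a difference of at least 2-fold in opposite directions in the 2 cultures. They belong to none of the gene lists and were named after their values were seen, and the difference between the cultures was not tested. Sh3bp4 was the only 1 of them that was well above background on all 4 arrays, at -1.30 in SH-2251-cultured and 1.59 in control cells. For the other 6 at least 1 of the values is a bound against a dim array. Kcna4 was higher in SH-2251-cultured cells (2.16, a bound) and lower in control cells (-1.59, a bound), as was Prl2c5 (1.23, a bound, and -2.09). The reverse held for Filip1 (-1.77, a bound, and 1.14), Neto1 (-1.69 and 1.59, both bounds), Ppp1r14d (-1.30 and 2.31, both bounds) and Rab39b (-1.16 and 1.74, the latter a bound).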

How the results depend on the processing

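Counts of genes at least 2-fold higher and lower (894 and 881) and r between the cultures (0.919) stayed within 1.5 times, or within 0.1 for r, under median scaling, quantile normalization, the authors' values, the filter on both arrays, outlier spots kept and the mean of all probes. With normexp 1512 genes were lower and r was 0.768; its fitted background mean was -151.7 on the resting SH-2251 array and 7.36 to 8.23 on the others. Without the spots marked as uneven (12 on that array) that mean was 7.45 and 440 genes were lower. With no filter and no bound 1421 genes were lower and r was 0.663. At 1.5-fold 1871 genes were higher and 2385 lower, and at 3-fold 396 and 145. With every named probe on its own 1367 probes were higher. Called genes were higher in 50.4% of cases, against 32.6% with normexp and 59.9% without uneven spots. The sign turned for Amd1 (-0.31), Ccl24 (-0.57), Ccr3 (-0.28), Dusp16 (-0.042), Il1rl1 (-0.30) and Tnfsf4 (-0.51) with normexp, for Nfatc1 (0.36) with the mean of its probes, and for the median of the HIN-200 list (-0.058) with no filter, where 7 genes enter in place of 3. Apart from the added genes and spots left out, the cause was not tested. Of the 279 called genes named, 52 were within 2-fold with normexp, 37 without uneven spots, 10 with the mean of probes, 10 with quantile normalization and 1 with median scaling. Signals near background limit the low genes. No paired analysis was possible because each condition is 1 array.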
